A study of Mus musculus with 2 samples.

Results

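Hepatoblasts are the epithelial progenitors of the fetal liver, and their secreted products and regulators were followed here on 2 arrays of cells prepared from that organ as erythroid progenitors. The set holds 44 genes chosen by symbol: 33 plasma proteins, 3 imprinted fetal genes, 7 liver transcription factors and the vasopressin receptor gene Avpr1a. A gene was taken where a probe set was annotated to it and to no other gene. This gave 42 of the 44, each through 1 probe set, of 17874 genes measured in all. H19, a noncoding RNA gene, had a probe set annotated to more than 1 gene, so it has no value here, and Trf, the transferrin gene, was not analysed here.

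The cells at 3 h (1 array) and at 0 h (1 array) both came from fetal livers of BALB/c embryos at gestational day 13.5 without the erythropoietin receptor (EpoR-/-, per the protocol), with 40 to 50 livers in a pool. Red cells were lysed, and cells with myeloid, lymphoid, megakaryocytic or late erythroid surface antigens were removed by magnetic depletion to leave CFU-E cells (colony-forming unit erythroid), which as a rule depend on erythropoietin. The cells then spent 1 h without growth factors in Panserin 401 with 2-mercaptoethanol and albumin, and were either kept for 3 h in Panserin 601 (3 h) or lysed at once (0 h). The genotype label names Epo KO where the protocol names the receptor, the treatment label at 3 h names supplemental growth factors where the protocol says that none were added, and only the 0 h sample carries a strain label, so the samples are called by their time. The labels give no number of embryos behind each array and do not say whether both arrays came from 1 pool.

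With 1 array per time there is no replicate, no error and no test, and every difference below compares these 2 arrays. Values are log2 expression values made by the authors with RMA, and a difference is the 3 h value minus the 0 h value, so 1 unit is a doubling. Probe sets hybridise with different strength, so a level says where a gene lies on the arrays' scale and is no amount of transcript to compare between genes. A gene was counted where its higher value reached 5.70, the median over every gene on both arrays and called the floor here, and 38 of the 42 members did. The robust SD of the differences of the 9284 genes at or above the floor was 0.31.

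The cells were labelled CFU-E, and 12 of 14 measured erythroid markers reached the floor at 3 h and 12 at 0 h. The hepatoblast genes were nonetheless strongly detected on both arrays: Alb, Afp and the hepatoblast surface gene Dlk1 lay more than 6 log2 units above the floor. None of the antibodies named in the protocol is described as directed against a liver epithelial protein. Epor, the gene deleted per the protocol, had values of 6.89 at 3 h and 7.08 at 0 h, and where its probe set lies relative to the deletion is not known, so it checks nothing. In samples of mixed cells, fewer hepatoblasts and less RNA per hepatoblast cannot be told apart.

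As background, hepatoblasts make most plasma proteins of the embryo: carriers such as albumin and alpha-fetoprotein, apolipoproteins, clotting factors and protease inhibitors. Their promoters are known to bind a small group of liver-enriched transcription factors, among them HNF1, HNF4, the C/EBP proteins and the FOXA proteins, and these factors also bind each other's genes. Alpha-fetoprotein, Dlk1, Igf2 and H19 are known as fetal genes that fall silent in the liver after birth.

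Promoter sequences are shown for the 5 plasma protein genes whose window held letters of both a short HNF1 motif and a C/EBP site, and for Hnf4a, the regulator whose window held the short HNF1 motif more than once. They come from RefSeq on build GRCm38.p6 and are printed 5′ to 3′ on the strand of the gene, 160 bases each, with positions counted back from the annotated start. Capitals mark the searched letters: GTTAAT for the short HNF1 motif, extended to GTTAATNAT where that longer form was present, and TTNNGCAA for C/EBP, each on either strand. The windows of Alb (chr5:90460710-90460869, plus strand), Afp (chr5:90490554-90490713, plus strand), Fga (chr3:83025993-83026152, plus strand), Fgb (chr3:83049864-83050023, minus strand) and Hnf4a (chr2:163546995-163547154, plus strand) end at the base before the start. That of Serpina1b (chr12:103738196-103738355, minus strand) ends at position -7.
Alb: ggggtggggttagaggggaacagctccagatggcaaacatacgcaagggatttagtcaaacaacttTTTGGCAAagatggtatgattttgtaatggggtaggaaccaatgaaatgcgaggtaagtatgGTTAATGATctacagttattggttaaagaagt
Afp: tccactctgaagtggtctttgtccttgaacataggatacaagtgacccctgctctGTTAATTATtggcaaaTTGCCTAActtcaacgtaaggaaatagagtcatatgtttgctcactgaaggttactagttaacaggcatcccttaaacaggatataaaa
Fga: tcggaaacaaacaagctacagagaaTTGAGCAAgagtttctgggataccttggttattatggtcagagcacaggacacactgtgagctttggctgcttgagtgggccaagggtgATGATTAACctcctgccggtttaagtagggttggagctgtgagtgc
Fgb: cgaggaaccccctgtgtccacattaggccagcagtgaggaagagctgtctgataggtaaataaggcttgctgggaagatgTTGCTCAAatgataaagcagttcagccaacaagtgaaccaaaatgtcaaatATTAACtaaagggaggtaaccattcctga
Serpina1b: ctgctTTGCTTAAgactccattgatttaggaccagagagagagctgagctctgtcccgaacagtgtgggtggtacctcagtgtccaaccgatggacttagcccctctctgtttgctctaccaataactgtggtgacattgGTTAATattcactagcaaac
Hnf4a: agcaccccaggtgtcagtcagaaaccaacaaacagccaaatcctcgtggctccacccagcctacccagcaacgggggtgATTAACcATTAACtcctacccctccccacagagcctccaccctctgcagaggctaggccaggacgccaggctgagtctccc
In Alb the HNF1 letters began at position -32 and the C/EBP letters at -94. In Afp they began at -105 and -89, so both lay close together and farther from the start. In Fga, Fgb and Serpina1b the short HNF1 motif lay at -43, -29 and -26, near the place it had in Alb, and the C/EBP letters lay farther from the start. Hnf4a held 2 of these motifs, at -81 and -74, in the downstream of its 2 windows, and no C/EBP letters.

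Over all members, 36 had a promoter in the RefSeq table, with 47 windows because 7 genes have more than 1 annotated start. The 250 bases before each start were searched on both strands. GTTAAT was in 8 of 30 windows of plasma proteins and 2 of 11 of liver transcription factors, against 6.43% of all 32851 windows in the table. The longer GTTAATNAT, which contains it, was in 3 of the 47 (Alb, Afp and Fga), against 0.737% of all windows. TTNNGCAA was in 11 of 30 windows of plasma proteins and 0 of 11 of transcription factors, against 9.56% of all windows. The strict palindrome TTGCGCAA, an instance of that pattern, was in 0 of 47 (0.164% of all windows), and CAAAGTCCA for HNF4 was also in 0 of 47 (0.384%). TGTTTAC, a FOXA motif, was in 5 of 47 windows, those of Apoa2, Apoh, Dlk1, Foxa1 and Rbp4, against 3.17% of all windows, and TATAAA in 11 of 47, against 12.4%. These are matches of letters and show no binding.

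**Figure D1:**
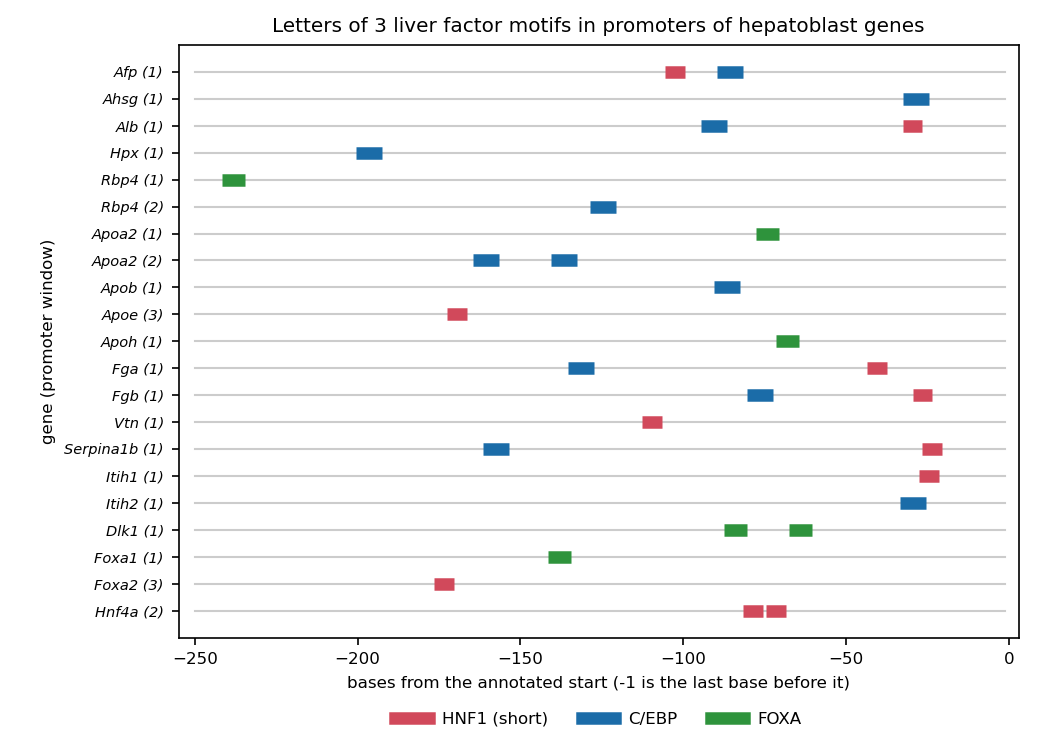
Positions of 3 searched motifs in promoter windows of hepatoblast genes. Each row is a window (window number in parentheses) and the horizontal axis gives bases from the annotated start. Red marks the short HNF1 motif, blue the C/EBP letters and green the FOXA letters. Alb, Fgb, Serpina1b and Itih1 carried the short HNF1 motif within 32 bases of the start.

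Hepatoblast genes were lower at 3 h nearly throughout. Of the 38 counted members, 36 were lower at 3 h (35 after quantile normalization of both columns, which put Dlk1 at 0.0083) and 2 higher, where 48.5% of all 9284 genes counted were lower. The median difference of the members was -0.25, against 0.01 for all genes, and 21 of the 38 differences were smaller than the robust SD of all genes. At least 1.5-fold lower were 7 of 38 (18.4%), namely Apob, Apoc1, F2, F10, Foxa3, Hnf4a and Avpr1a, where 4.80% of all genes were. None was at least 1.5-fold higher, against 6.94% of all genes. At least 2-fold lower was 1 member, Avpr1a, against 0.872% of all genes, and 0 were at least 2-fold higher, against 2.00%. Avpr1a was counted through its 0 h value alone, so its difference is no measured fold. The other 37 counted members reached the floor on both arrays. Of these, 35 were lower and 6 at least 1.5-fold lower, and the share of all genes on that basis was not computed. With a higher floor of 6.91, set from genes typical of other organs, 0 members were 2-fold lower. Ahsg (1.49-fold lower) and Apoh (1.48-fold lower) lay just under the 1.5-fold threshold. The plot of the values on both arrays shows the 0 h point to the right of the 3 h point for these 36 genes.

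**Figure D2:**
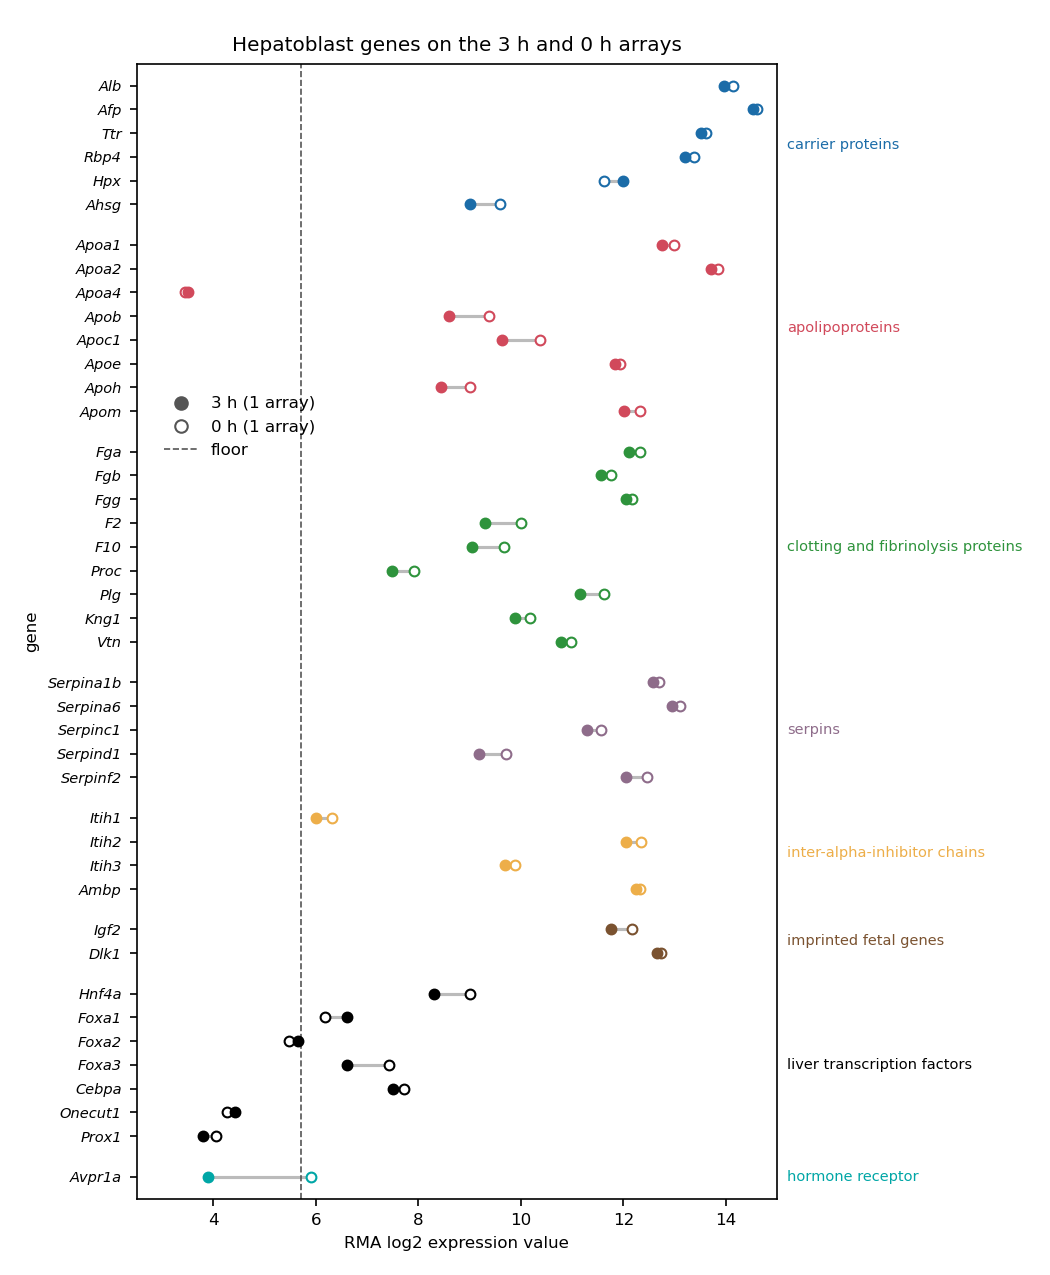
RMA log2 values (horizontal axis) of the 42 measured hepatoblast genes, by role. Filled points are the 3 h array, open points the 0 h array, and the dashed line is the floor of 5.70. The points of Afp and Dlk1 nearly coincide, whereas those of Apob, Apoc1, F2, Foxa3, Hnf4a and Avpr1a stand apart.

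Among the carrier proteins of plasma, Alb, Afp, Ttr and Rbp4 differed little, whereas Hpx and Ahsg differed more. Alb, for albumin, had a value of 13.96 at 3 h and 14.15 at 0 h, a difference of -0.19. Afp, for its fetal relative alpha-fetoprotein, had 14.53 at 3 h and 14.60 at 0 h (-0.07). The genes are direct neighbours in the RefSeq order of protein-coding genes (assembly GRCm38.p6), and both lay close to the highest value of either array (14.73 on each). Ttr, for the thyroid hormone carrier transthyretin, had 13.51 at 3 h and 13.62 at 0 h (-0.11). Rbp4, for the retinol carrier that circulates bound to transthyretin, had 13.20 at 3 h and 13.38 at 0 h (-0.18). Hpx stood against the rest: hemopexin, which binds free haem, had 11.997 at 3 h and 11.62 at 0 h, and was 1.30-fold higher. Ahsg, for fetuin-A, an inhibitor of mineral deposition, had 9.02 at 3 h and 9.60 at 0 h (-0.58), the largest difference among the carriers. The median of these 6 genes was -0.14.

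Apolipoproteins, the protein parts of lipoprotein particles, were lower in all 7 counted members, with a median of -0.33. Apob, the structural protein of very low density lipoprotein, had 8.60 at 3 h and 9.38 at 0 h and was 1.72-fold lower. Apoc1, for a small exchangeable apolipoprotein, had 9.63 at 3 h and 10.37 at 0 h and was 1.68-fold lower. Its direct neighbour Apoe, which macrophages also make, had 11.84 at 3 h and 11.93 at 0 h (-0.10), so these adjacent genes differed by unlike amounts. Apoh, for a phospholipid-binding plasma protein, had 8.44 at 3 h and 9.01 at 0 h (-0.57). Apom, for a lipocalin that rides on high density lipoprotein, had 12.01 at 3 h and 12.33 at 0 h (-0.33). The main proteins of high density lipoprotein lay nearer to 0: Apoa1 had 12.76 at 3 h and 12.995 at 0 h (-0.23), and Apoa2 had 13.70 at 3 h and 13.84 at 0 h (-0.14). Apoa4, known mainly from intestine in the adult, was below the floor on both arrays, with 3.51 at 3 h and 3.45 at 0 h.

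Genes of clotting and its control were lower in all 9 members and had a median of -0.30. The 3 fibrinogen chain genes, which lie next to each other in the RefSeq order, had similar small differences. Fga had 12.12 at 3 h and 12.33 at 0 h (-0.21). Fgb had 11.57 at 3 h and 11.75 at 0 h (-0.19), and Fgg 12.06 at 3 h and 12.17 at 0 h (-0.11). F2, for prothrombin, a vitamin K-dependent protease, had 9.30 at 3 h and 10.01 at 0 h and was 1.64-fold lower. F10, for the factor that cleaves prothrombin, had 9.06 at 3 h and 9.67 at 0 h and was 1.53-fold lower. Proc, for the anticoagulant protein C, had 7.48 at 3 h and 7.92 at 0 h (-0.44), so the enzyme that opposes clotting was lower along with those that drive it. Plg, for plasminogen, which dissolves fibrin, had 11.15 at 3 h and 11.62 at 0 h (-0.47). Kng1, the source of bradykinin, had 9.88 at 3 h and 10.18 at 0 h (-0.30). Vtn, for the adhesive protein vitronectin, had 10.79 at 3 h and 10.99 at 0 h (-0.20).

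Protease inhibitors followed the same direction. All 5 serpins were lower, with a median of -0.27 and none past 1.5-fold. Serpind1, for heparin cofactor II, which inhibits thrombin, had 9.18 at 3 h and 9.72 at 0 h (-0.54). Serpinf2, for the plasmin inhibitor alpha-2-antiplasmin, had 12.06 at 3 h and 12.46 at 0 h (-0.40). Serpinc1, for antithrombin, had 11.30 at 3 h and 11.56 at 0 h (-0.27), between these and the remaining members. Serpina6, for the glucocorticoid carrier, had 12.95 at 3 h and 13.11 at 0 h (-0.16). Serpina1b, an alpha-1-antitrypsin gene, had 12.59 at 3 h and 12.69 at 0 h (-0.10), and its probe set is of the kind that may also read its close paralogs. The chains of the inter-alpha-inhibitor family, which stabilise hyaluronan matrix, were lower in all 4 members, with a median of -0.23. Itih1 had 6.01 at 3 h and 6.32 at 0 h (-0.30), close to the floor. Its direct neighbour Itih3 had 9.69 at 3 h and 9.88 at 0 h (-0.19), and Itih2 had 12.06 at 3 h and 12.34 at 0 h (-0.27). Ambp, whose product bikunin is the light chain they join, had 12.24 at 3 h and 12.33 at 0 h (-0.08), the least of the family.

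The imprinted fetal genes differed unequally. Igf2, for the fetal growth factor, had 11.76 at 3 h and 12.18 at 0 h and was 1.33-fold lower. Dlk1, for a surface protein used to mark hepatoblasts, had 12.66 at 3 h and 12.73 at 0 h (-0.07), among the smallest differences of all members.

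**Figure D3:**
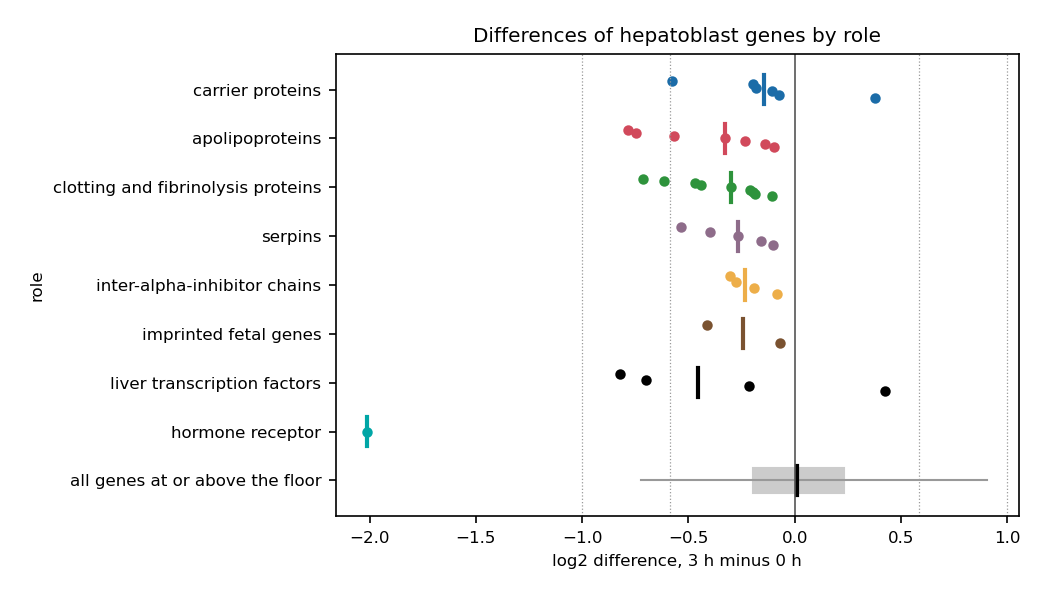
Log2 difference, 3 h minus 0 h (horizontal axis), of the 38 counted hepatoblast genes by role. Points are genes, thick bars are medians, dotted lines mark 1.5-fold and 2-fold, and the bottom row gives the median, quartiles and central 95% of all genes at or above the floor. All points of the apolipoproteins, clotting proteins, serpins and inter-alpha-inhibitor chains lie left of 0.

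Among the liver transcription factors, 4 of 7 reached the floor, 3 of them lower and 1 higher. Hnf4a, a nuclear receptor central to hepatocyte gene expression, had 8.31 at 3 h and 9.01 at 0 h and was 1.62-fold lower. Foxa3 had 6.61 at 3 h and 7.43 at 0 h and was 1.77-fold lower, the largest difference among these factors. Its relative Foxa1 had 6.61 at 3 h and 6.18 at 0 h and was 1.34-fold higher, the opposite direction to Foxa3. Both are forkhead factors, which open chromatin at liver genes. Both values of Foxa1 lay under 6.91, and with that higher floor the remaining 3 factors were all lower, with a median of -0.70. Foxa3 passed the higher floor through its 0 h value alone, so this count follows in part from the choice of floor. Cebpa, a regulator of liver metabolism that is also made in granulocyte progenitors, had 7.51 at 3 h and 7.73 at 0 h (-0.21). The other three stayed below the floor on both arrays, where RMA values carry little information. Foxa2 had 5.65 at 3 h and 5.48 at 0 h, just under it. Onecut1, for the factor HNF6, had 4.42 at 3 h and 4.27 at 0 h. Prox1, which is needed for hepatoblast migration, had 3.80 at 3 h and 4.05 at 0 h.

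Plasma proteins set against liver transcription factors gave medians of -0.23 (31 genes, 30 of them lower) and -0.46 (4 genes, 3 of them lower), 0.22 apart. The order of these medians was not stable. The distance was -0.0085 when the genes below the floor were included, 0.015 with only genes of a mean under 12, -0.11 with only those of a mean under 10, and 0.48 with the floor of 6.91. It was -0.38 when probe sets with a suffix that marks possible matches to several transcripts or genes were left out, which removed Hnf4a and Foxa3. With means in place of medians the values were -0.30 and -0.33. Genes are not replicates, so no test of this comparison was made.

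The size of the difference varied with the level among the plasma proteins. The 22 with a mean of 10 or more over both arrays had a median of -0.19, and the 9 with a mean under 10 had one of -0.57 (this split was made with the values in view). Apoc1 (-0.75) had a mean of 10.0001, so its place in the upper group hangs on the exact cut. All 9 of those under 10 were lower, where 47.2% of all genes of that range were, and 21 of the 22 others were, where 56.7% of all genes of their range were. Across the 31 plasma protein genes, the difference and the mean level were correlated with r = 0.59 (Pearson) and rho = 0.70 (Spearman). Across all genes at or above the floor r was -0.10 and rho -0.09. Both describe genes read on the same 2 arrays. Whether bright probe sets were near saturation was not tested. With only genes of a mean under 12, the plasma protein median was -0.44 over 17 genes.

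**Figure D4:**
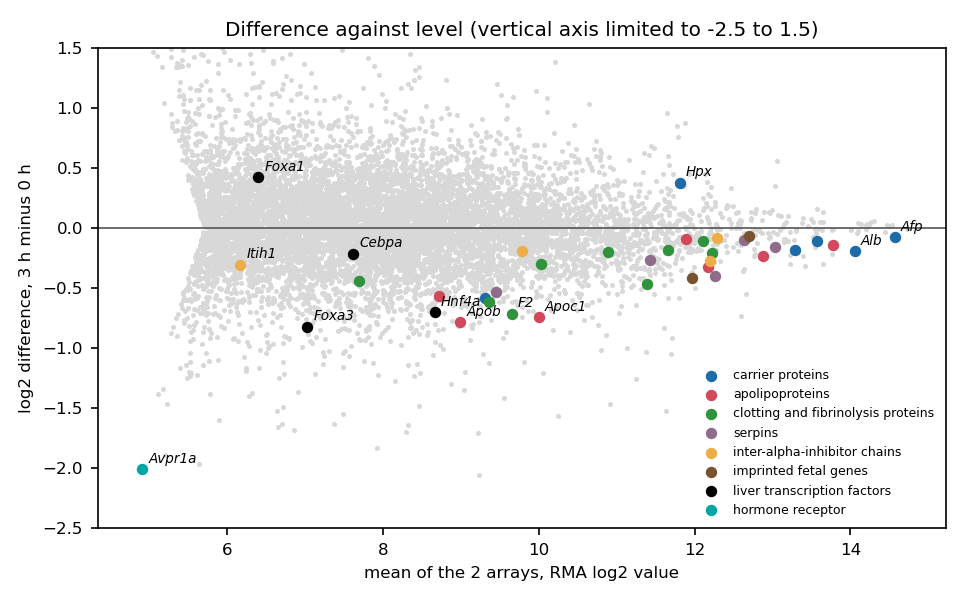
Log2 difference, 3 h minus 0 h (vertical axis), against the mean RMA log2 value of both arrays (horizontal axis). Grey points are all genes at or above the floor and coloured points the hepatoblast genes. Hepatoblast genes above a level of 12 lie between -0.40 (Serpinf2) and -0.07 (Afp and Dlk1), and Hpx and Foxa1 lie above 0.

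Avpr1a encodes the vasopressin receptor through which hepatocytes release calcium from internal stores, and it had 3.90 at 3 h and 5.91 at 0 h. Only its 0 h value reached the floor, by a small margin, and both values lay under 6.91, so the difference of -2.01 gives no fold. Of 9 other measured genes of vasopressin and related hormone signalling, 3 reached the floor. The angiotensin receptor gene Agtr1a had 4.99 at 3 h, below the floor, and 6.22 at 0 h. The G protein genes differed in direction: Gnaq had 8.53 at 3 h and 7.79 at 0 h (0.74), and Gna11 had 7.66 at 3 h and 8.18 at 0 h (-0.52).

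Plasma protein genes outside the set ran the same way. Of 58 measured, 34 reached the floor, and 31 of these were lower and 3 higher, with a median of -0.48. At least 1.5-fold lower were 13 of 34, against 4.80% of all genes, and at least 1.5-fold higher 2, against 6.94%. Of the 13, 5 (Saa4, Masp1, F11, F7 and Proz) reached the floor at 0 h alone. Of the 27 genes that reached the floor at both times, 24 were lower, 8 of them at least 1.5-fold, and the median was -0.37. The share of all genes that reached the floor at both times was not computed for these counts. Igfbp1, for an insulin-like growth factor binding protein, had 10.18 at 3 h and 11.64 at 0 h and was 2.76-fold lower. Saa4, a constitutive serum amyloid gene, had 5.09 at 3 h, below the floor, and 6.69 at 0 h. Masp1, for a complement lectin pathway protease, likewise had 5.32 at 3 h and 6.24 at 0 h. Hamp, for the iron hormone hepcidin, ran against them, with 7.45 at 3 h and 6.33 at 0 h, and was 2.16-fold higher. All 8 counted genes of lipoprotein assembly and liver metabolism were lower, with a median of -0.43, among them Aldh1b1 (-1.28), the glycogen synthase gene Gys2 (-0.69), the urea cycle gene Otc (-0.55) and the tyrosine catabolism gene Fah (-0.54).

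Other genes listed as liver genes did not share that direction, and which of the mixed cells they were read from is not known. Of 13 further liver transcription factors at or above the floor, 5 were lower and 8 higher, with a median of 0.15. Cebpd had 7.75 at 3 h and 7.06 at 0 h (0.69), and Nr1h3, for the oxysterol receptor LXR alpha, had 5.15 at 3 h, below the floor, and 5.82 at 0 h. Nr2f1 (0.37) and Sox9 (0.30), a marker of bile duct precursors, differed less. Of 18 surface and keratin genes of hepatoblasts, 8 were lower and 10 higher. At least 1.5-fold higher were 7 of the 18, against 6.94% of all genes, and at least 1.5-fold lower 1, against 4.80%. Their median was 0.23, and -0.01 over the 16 that reached the floor on both arrays, which leaves out Epcam and Krt19. Of these 16, 8 were lower and 8 higher, 5 of the higher ones at least 1.5-fold. For genes at the floor on both arrays, the share of all genes was not computed here either. The cadherin gene Cdh1 had 8.94 at 3 h and 7.78 at 0 h and was 2.24-fold higher. The epithelial adhesion gene Epcam had 7.01 at 3 h and 5.57 at 0 h, where it was below the floor. The keratin gene Krt8 had 12.12 at 3 h and 11.17 at 0 h (0.95), whereas the hepatocyte glucose transporter gene Slc2a2 had 8.37 at 3 h and 9.72 at 0 h (-1.35).

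**Figure D5:**
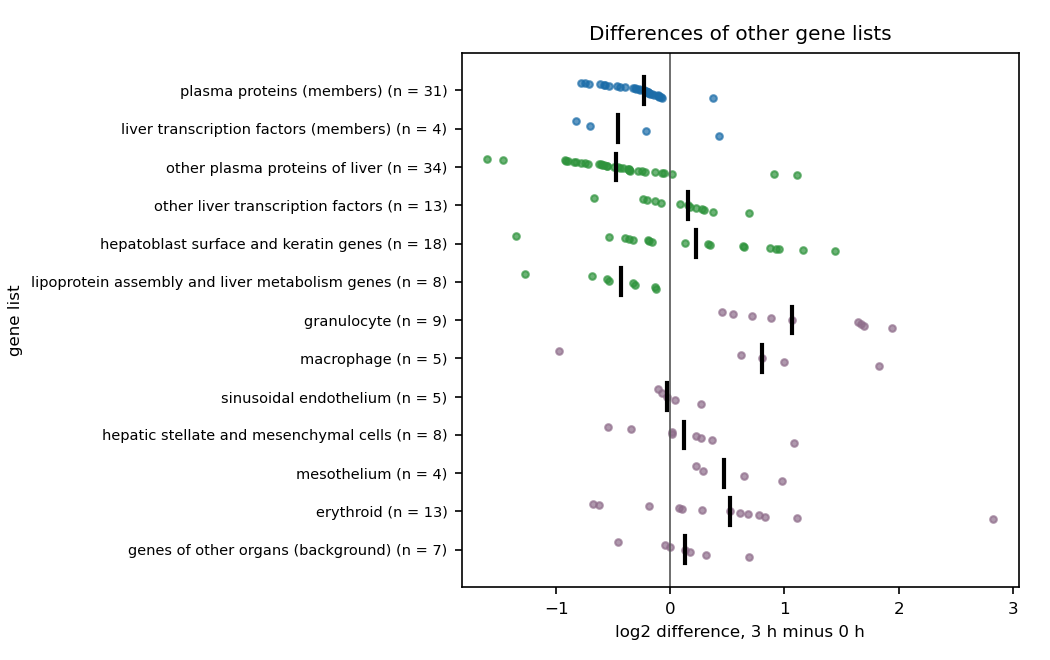
Log2 difference, 3 h minus 0 h (horizontal axis), of counted genes in each list, with medians as black bars. Blue rows are the hepatoblast plasma proteins and transcription factors, green rows other liver genes, and purple rows markers of other cells or organs. The 2 plasma protein rows and the row of lipoprotein assembly and liver metabolism lie mostly left of 0, and granulocyte markers lie right of it.

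Markers of other cells moved in the same arrays, and their part in these results was not tested. Of 12 measured granulocyte markers, 9 reached the floor at 3 h and 6 at 0 h. The 9 counted were higher, with a median of 1.06 (0.80 over all 12), and the calprotectin genes S100a9 (1.94) and S100a8 (1.70) differed most. Their mean log2 level over the whole list was 7.77 at 3 h and 6.82 at 0 h, with single genes between 3.81 and 12.16 at 3 h and between 3.35 and 11.70 at 0 h. Of the macrophage markers 5 of 15 were counted, 4 of them higher and Vcam1 lower (-0.98), with a median of 0.80 (0.07 over all 15) and a mean level over the list of 5.48 at 3 h and 5.26 at 0 h. The lysozyme gene Lyz2 (1.83) and the receptor gene Csf1r (1.00) differed most among them. Erythroid markers had a median of 0.52, with 10 of 13 higher and a mean level of 9.04 at 3 h and 8.57 at 0 h. The 3 lower ones were Ank1 (-0.62), Epor (-0.19) and Epb42, which had 5.23 at 3 h, below the floor, and 5.91 at 0 h. Among the higher ones Nfe2 differed by 1.11. The band 3 gene Slc4a1 had 8.30 at 3 h and 5.47 at 0 h, where it was below the floor. Sinusoidal endothelium (median -0.03 over 5 genes) and stellate and mesenchymal markers (0.12 over 8 genes) differed little as lists, with Pecam1 (0.27), Stab1 (-0.11), Acta2 (1.08) and Lum (-0.55) the farthest from 0. The 4 counted mesothelial markers were higher (median 0.47), with Gpm6a (0.98) and Krt19 (0.65) highest, both below the floor at 0 h. Among genes typical of other organs, 7 of the 37 on the arrays were counted, and their median was 0.13, between Prm1 (-0.46) and Acta1 (0.69).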

How the data were processed

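Gene expression was measured on Affymetrix arrays in 2 samples, 1 at 3 h and 1 at 0 h. Each array took biotinylated cRNA copied from 1.5 µg of total RNA, per the labels' protocols. The deposited log2 values were made by the authors with RMA and the affy package, per the submitters' processing notes. The sources used here give neither tool versions nor the set of arrays normalized together. RMA equalises the distributions of arrays, so a shift of all transcripts cannot be seen, and it compresses differences of dim signals. There is no read depth on an array, and precision is limited by the number of arrays.

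Values were used as deposited (20666 probe sets). Genes were assigned through the platform annotation, in which 17918 had 1 gene, 79 several and 2669 none, and only the first kind was named. All 42 measured members kept their symbol when matched by Entrez ID to RefSeq genes of GRCm38.p6. Probe sets of a gene were averaged, which touched no member. Of the members, 30 were read by probe sets without a suffix and 12 by probe sets with a suffix that marks possible matches to several transcripts or genes. The titles give the time of each sample. With 1 array per group no p-value was computed, and differences are counted at 1.5-fold and 2-fold beside the same counts over all genes.

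The members and lists were chosen with earlier results of these data known, so agreement of a list with such results is no independent support. All members were named whatever their values, and of each other list the up to 4 counted genes (of cell type lists up to 2) with the largest absolute difference. Vcam1 and the lower erythroid markers were named besides, because they went against their lists. Alternatives were quantile normalization of both columns, loess removal of an intensity trend (span 0.3), the brightest probe set of a gene, no probe sets with suffixes, no floor, a floor of 6.91 (95th percentile of the values of genes typical of other organs), only genes with a mean under 12, means in place of medians, and Igf2 and Dlk1 added to the plasma proteins. Restriction to genes with a mean under 10 was chosen after seeing the data. The steps were tested on simulated data with 200 planted differences. These were larger than 2-fold and lay in genes well above the floor, so calls at 1.5-fold or near the floor were not tested. Python 3.11.15 was used with scipy 1.17.1, statsmodels 0.14.6, pandas 2.3.3, numpy 2.4.6 and matplotlib 3.10.9.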

Additional observations from a re-analysis of the deposited data

How the results depend on the processing

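No paired analysis was possible because each time has 1 array. A median was taken to move where it shifted by 0.1 or more, and a count where it changed by over 1.5 times. The count of 36 lower members became 35 after quantile normalization, with Dlk1 at 0.0083, and was 36 after loess removal of the intensity trend, and the plasma protein median was -0.21 and -0.18 under these. Without suffixed probe sets the transcription factor median turned to 0.11 (Foxa1 and Cebpa only) and its distance from the plasma proteins to -0.38. With no floor they were -0.21 (7 genes) and -0.0085. With the floor of other organs they were -0.70 (3 genes, Foxa3 through its 0 h value alone) and 0.48, and 0 members were 2-fold lower. With only means under 12 the plasma protein median was -0.44, the distance 0.015, and 21 of 23 members were lower. With only means under 10 they were -0.57, -0.11 and 13 of 14. With means in place of medians the transcription factors had -0.33 and the distance was 0.030. These shifts follow from which genes remained or how they were summarised. The other 50 of 65 values stayed within these bounds, but some of them could not have moved. Each measured member had 1 probe set, so taking the brightest changed nothing, and dropping genes could not raise a count of 0. Neither quantile normalization nor loess removal gave any of the 7 members past 1.5-fold the opposite sign. The other alternatives left the difference of each member they kept unchanged, so they could change no sign. Depth does not apply to arrays; signals near the floor of 5.70, as for Itih1, Foxa1, Foxa3 and Avpr1a, are the least certain, and without replicates none of these differences has an error.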

Other observations

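Hpx, the plasma protein that was higher at 3 h, is known in the liver as an acute-phase gene, one of those that inflammatory cytokines induce. A list of 29 such genes, assembled after the values of Hpx, Hamp and Cebpd were seen, was therefore described without a test. Of 27 measured, 19 reached the floor, with a median of -0.11. Of these, 10 were lower, where 48.5% of all genes counted were, and 9 were higher. Hpx, Hamp and Cebpd, which prompted the list, are among those 9. Higher were the haptoglobin gene Hp (8.71 at 3 h and 7.81 at 0 h), Hamp, Hpx, Cebpd, the serum amyloid gene Saa3 (9.06 at 3 h and 8.04 at 0 h), the interleukin 1 receptor antagonist gene Il1rn (6.26 at 3 h and 5.07 at 0 h) and Lcn2 (6.17 at 3 h and 4.53 at 0 h), the last 2 below the floor at 0 h. Saa3, Il1rn and Lcn2 are also known from myeloid cells, and Lcn2 is itself in the granulocyte list described above. The part of such cells in these values was not tested. Crp (7.43 at 3 h and 7.41 at 0 h) and Lbp (7.82 at 3 h and 7.80 at 0 h) differed by little. The pentraxin gene Apcs (6.34 at 3 h and 7.25 at 0 h) and the cytokine feedback gene Socs3 (6.95 at 3 h and 7.64 at 0 h) were lower, as were the 3 fibrinogen genes. Also lower, by smaller amounts than these 2, were Mt2 (-0.32), Mt1 (-0.30), Itih4 (-0.28), Cebpb (-0.20) and Itih3 (-0.19). Saa1, Saa2, Orm1, Orm2 and Orm3, which are among the classical acute-phase genes of mouse liver, were below the floor on both arrays.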
